A study of Homo sapiens with 6 samples.

Results

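The receptors for glutamate, GABA and glycine were described in U251 cells with and without CRISPR targeting of NUAK2. They were taken by symbol as the protein-coding AMPA, kainate, NMDA, delta, metabotropic glutamate, GABA-A, GABA-B and glycine receptor genes, which gave 51 genes of the 28395 in the count table. U251 (U251MG in the labels) is an established human glioblastoma line of astrocytic type. Polyadenylated RNA was sequenced in bulk from 3 WT and 3 NUAK2-CR libraries. In NUAK2-CR cells NUAK2, a kinase gene, was targeted with a lentiviral CRISPR-Cas9 vector and lines were grown from sorted single cells. WT is the U251 line without this targeting, and the labels give no treatment for either group. The labels number the NUAK2-CR libraries without naming a clone, and a legend in the supplementary material names clone CR-3, so whether the 3 libraries come from 1 clone is not given. The labels do not say that the replicates were separate cultures, so p-values measure the spread between these libraries, which may be technical.

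Glutamate opens AMPA, kainate and NMDA receptors, which are cation channels, whereas GABA and glycine open anion channels. Metabotropic glutamate receptors and GABA-B receptors are coupled to G proteins instead. An NMDA receptor needs the GRIN1 subunit, a GABA-B receptor needs both GABBR1 and GABBR2, and AMPA receptors that lack GRIA2 let calcium pass. Glioma cells are known to receive glutamatergic synapses from neurons, and several of these genes are also transcribed in astrocytes.

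Total counts ranged from 35310946 to 55574081 in the WT libraries and from 29648445 to 33776712 in the NUAK2-CR libraries. The targeted gene, NUAK2, was read in every library and was lower in NUAK2-CR (799, 961 and 849 normalized counts) than in WT (1926, 1457 and 1580.1; log2 fold change -0.93, SE 0.11, adjusted p = 1.8e-05). Normalized counts are the deposited counts brought to a common library size by TMM, and every fold change is NUAK2-CR over WT. Of the markers behind the glial label, GFAP, VIM, SOX2 and SOX9 were read in all 6 libraries and AQP4 had no more than 3 counts in any. Of 9 tested glial and glioma markers, 6 were lower in NUAK2-CR and none was higher, beside 28.2% and 26.3% of all tested genes. Their summed level was 333371 to 369329 in WT and 147197 to 154121 in NUAK2-CR, and most of it came from CD44, VIM and GFAP. Of 11 tested neuronal markers, 4 were higher and 3 lower, beside 26.3% and 28.2% of all tested genes. Their summed level was 40743 to 43205 in WT and 17915 to 18344 in NUAK2-CR, mostly from NEFL and TUBB3, and ELAVL4 had no count. SNAP25 (3.56), STMN2 (5.27) and ELAVL3 (2.90) were above WT on the log2 scale and NEFL (-3.49) was below. Of the oligodendrocyte precursor markers OLIG1, OLIG2 and SOX10 had no more than 3 counts in any library, PDGFRA fell (-2.54) and CSPG4 rose (1.59), with summed levels of 824 to 1089 in WT and 969 to 1138 in NUAK2-CR. Of 5 immune markers only CSF1R was tested (-2.46), the other 4 had no more than 3 counts, and the summed level was 202 to 237 in WT and 38.1 to 48.3 in NUAK2-CR. The part of these markers in the receptor changes was not tested. In bulk RNA, fewer cells of a type and less RNA per cell cannot be told apart.

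The receptor genes moved in both directions. The AMPA subunits GRIA3 and GRIA4, the kainate subunits GRIK2 and GRIK4, the NMDA subunit GRIN2C, the GABA-A subunits GABRA3, GABRB1 and GABRQ and the GABA-B subunit GABBR2 were lower in NUAK2-CR cells. The NMDA subunits GRIN2A and GRIN3B and the glycine subunit GLRB were among those that were higher. GABRA3 fell 18.6-fold, GRIA4 12-fold and GRIK2 7.78-fold, while GRIN2A rose 3.16-fold. Summed over the 51 genes, receptor counts were 95.7, 106 and 94.7 CPM (of all counts of a library) in WT. In NUAK2-CR they were 65.3, 57.9 and 62.5 CPM, so that the groups did not overlap. This sum follows the genes with most counts and not the set as a whole. GABRA3 went from 1148, 878 and 623 deposited counts in WT to 26, 38 and 39 in NUAK2-CR. GRIK2 went from 565, 577 and 417 to 48, 45 and 56, whereas GRIN2A rose from 173, 159 and 134 to 357, 329 and 407. The deposited counts of GLRB overlapped (536, 551 and 455 against 445, 468 and 616), and it rose only as normalized counts.

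Of the 51 genes, 17 passed edgeR's filter on low counts and were tested. The test (edgeR quasi-likelihood, Benjamini-Hochberg over 14873 genes) called 13 of the 17 at an adjusted p under 0.05, beside 54.5% of all tested genes. Lower in NUAK2-CR were 9 of the 17, beside 28.2% of all tested genes, and higher were 4, beside 26.3%. A further threshold, an absolute log2 fold change over 2, defines a DEG. By it 4 receptor genes were lower (GRIA4, GRIK2, GRIA3 and GABRA3), beside 2.83% of all tested genes, and 1 was higher (GRIN3B), beside 1.89%. WT and NUAK2-CR libraries did not overlap for 12 of the 17, beside 61.4% of all tested genes. The median log2 fold change of the 17 was -0.81, and that of all tested genes was -0.01. A gene passes the filter when enough libraries hold counts, which 1 group alone can supply, so these shares describe the 17 tested genes and not the 51.

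**Figure D1:**
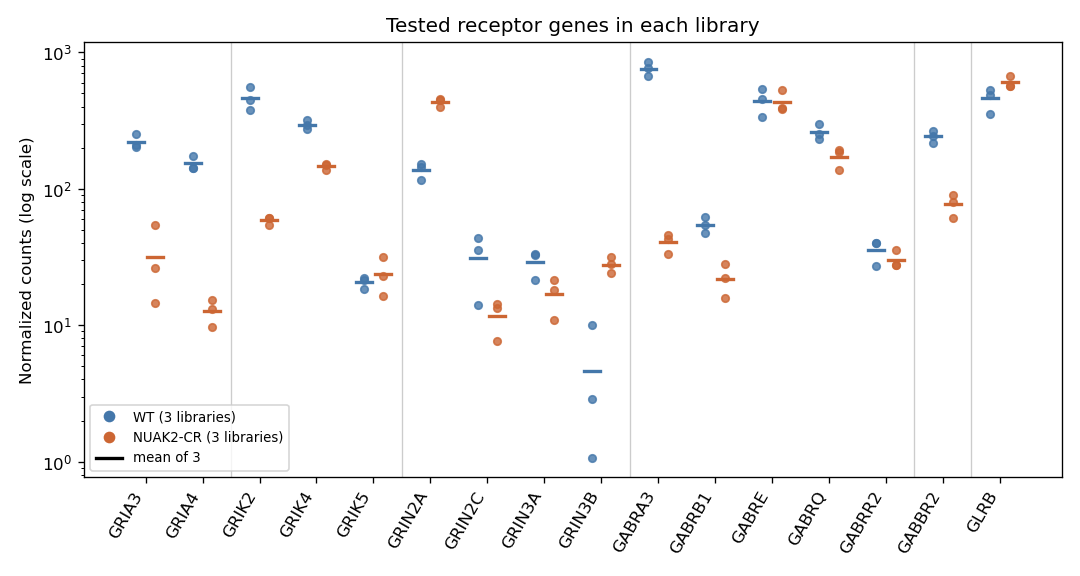
Normalized counts (log scale) of 16 of the tested receptor genes in 3 WT libraries (blue) and 3 NUAK2-CR libraries (orange), with a bar at each mean of 3 and grey lines between receptor families. GABRA3 sits at 670 to 847 in WT and 33 to 45.8 in NUAK2-CR, and GRIN2A at 115 to 153 and 397 to 453.

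Levels of the receptor genes were low to middling. Per kilobase of exon, where a level can be compared between genes, the median tested gene had 160 normalized counts in WT and 163 in NUAK2-CR. In WT, GABRA3 led the receptors with 183 per kilobase, at percentile 53.2 of the 14432 tested genes with a length, followed by GLRB with 135. In NUAK2-CR, GLRB led with 178 per kilobase, at percentile 51.9, followed by GABRE with 45.4, and GABRA3 had 9.77. GRIN3B was the lowest of the 17 in WT, with 1.42 per kilobase. These are levels of RNA, and no protein or current was measured. Positions of genes are those of RefSeq on GRCh38.p14.

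Among the DEGs, GRIK2, GRIA4 and GRIN3B have an entry in the RefSeq promoter table of GRCh38.p14, which holds 38 of the 51 genes, and GABRA3 and GRIA3 do not. The 250 bases before the start of GRIK2, which fell, and of GRIN3B, which rose, are printed because they show what both starts had in common. CG dinucleotides, the sites at which promoters can be methylated, are in capitals, and numbered 25 and 28.
GRIK2, chr6:101393458-101393707, plus strand: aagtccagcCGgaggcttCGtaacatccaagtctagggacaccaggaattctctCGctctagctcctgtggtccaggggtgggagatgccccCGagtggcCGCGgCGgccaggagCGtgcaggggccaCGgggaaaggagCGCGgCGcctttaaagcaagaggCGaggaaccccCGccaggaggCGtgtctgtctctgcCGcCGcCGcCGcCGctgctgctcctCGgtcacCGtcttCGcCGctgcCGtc
GRIN3B, chr19:1000169-1000418, plus strand: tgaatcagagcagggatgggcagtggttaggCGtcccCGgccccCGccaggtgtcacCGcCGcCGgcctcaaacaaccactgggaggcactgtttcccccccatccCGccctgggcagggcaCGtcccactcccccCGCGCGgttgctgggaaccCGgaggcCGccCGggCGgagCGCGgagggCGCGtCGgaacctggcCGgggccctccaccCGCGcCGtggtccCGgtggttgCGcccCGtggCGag
Both windows were rich in CG. In the whole window of 300 bases (250 before the start to 50 after it), GRIK2 had 33 CG and GRIN3B 34, more than in 83.1% and 84.7% of 27305 promoters. GRIA4, which fell, had 26, and its window overlaps an annotated exon and is not printed. GRIN2A, which rose, had 13, close to the median of 14 over all promoters, and the median of the 38 receptor promoters was 18.5. Among the tested genes GABBR2 (50 CG) and GRIK4 (49 CG) fell and GLRB (37 CG) rose, so that high CG counts stood on both sides. The methylation of these sites was not measured.

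Motifs were searched in the same windows on both strands. The TEAD core GGAATG stood in 5 of the 38 receptor promoters (GRM7, GABRA2, GABRB1, GLRB and GRM3) and in 14% of all promoters. Of the 13 tested receptor genes with an entry, the 2 that held it moved in opposite directions, GABRB1 down and GLRB up. The AP-1 site TGACTCA stood in GABRR3, GABRA6 and GRM6, none of them tested, and in 4.92% of all promoters. The left part of the site of REST, a repressor of neuronal genes, TTCAGCACC, stood in GRM2 alone and in 0.403% of all promoters. A match is a run of letters and not a bound site.

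AMPA receptors carry most fast excitatory transmission. GRIA4 (chr11:105609994-105982090) had 143, 175 and 142 normalized counts in WT against 15.2, 9.65 and 13.2 in NUAK2-CR. Every NUAK2-CR library was below every WT library, and the mean fell from 153 ± 18.4 to 12.7 ± 2.83 (SD, n = 3), with a log2 fold change of -3.58 (SE 0.27, adjusted p = 3.54e-07). GRIA3 (chrX:123184278-123490915) had 203, 209 and 253 in WT, compared with 54.6, 14.5 and 26.3 in NUAK2-CR. Its groups did not overlap either, although the NUAK2-CR libraries differed among themselves, and its mean fell from 222 ± 27.1 to 31.8 ± 20.6 (SD, n = 3). Its log2 fold change was -2.81 (SE 0.34, adjusted p = 1.88e-05) and lay between -3.40 without NUAK2-CR replicate 1 and -2.46 without NUAK2-CR replicate 2. GRIA2, the subunit that makes AMPA receptors impermeable to calcium, was not tested, with 10, 7 and 4 counts in WT against 5, 0 and 0 in NUAK2-CR. GRIA1 had 2 counts, both in WT replicate 3.

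Kainate receptors lost GRIK2 more than GRIK4, and GRIK5 was not called. GRIK2 (chr6:101393708-102070083), a subunit that forms channels on its own, had 375, 557 and 448 normalized counts in WT, compared with 60.9, 54.3 and 61.5 in NUAK2-CR. The groups stood well apart, and its mean fell from 460 ± 91.2 to 58.9 ± 4.02 (SD, n = 3), with a log2 fold change of -2.96 (SE 0.19, adjusted p = 6.46e-08). GRIK4 (chr11:120511748-120988906), a high-affinity subunit that needs partners such as GRIK2, had 274, 291 and 320 in WT against 137, 153 and 149 in NUAK2-CR. It fell 2.01-fold with tight groups (log2 fold change -1.01, SE 0.15, adjusted p = 9.07e-05). GRIK5, the other high-affinity subunit, had 21.3, 22.2 and 18.3 in WT, compared with 16.5, 22.9 and 31.8 in NUAK2-CR. Its groups overlapped (log2 fold change 0.21, 95% interval -0.63 to 1.05, adjusted p = 0.669), and the sign turned to -0.06 without NUAK2-CR replicate 3. GRIK1 had 2 to 13 counts in a library and shares exon sequence with BACH1 on the other strand, and GRIK3 had no count.

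The make-up of the kainate family was read as shares of its counts per exon length. GRIK2 held 25.7%, 31.7% and 26.4% in WT and 9.01%, 7.38% and 7.95% in NUAK2-CR. GRIK4 went from a mean of 64.8% to 72.2% and GRIK5 from 5.92% to 15.1%. None of these shares overlapped between the groups, and with 3 against 3 libraries the exact two-sided permutation test cannot go below p = 0.1, which each reached (0.154 after Benjamini-Hochberg adjustment over 20 shares). Which subunit led in WT depended on length: without it GRIK2 held 58.6% in WT and 24.9% in NUAK2-CR, and GRIK4 38.1% and 61.8%. The fall of the GRIK2 share and the rise of the GRIK4 share stood both ways.

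NMDA receptors are calcium-permeable channels that need glutamate and a co-agonist, glycine or D-serine, and their 4 tested subunits did not move as a block. GRIN2A (chr16:9753404-10182908), a glutamate-binding subunit of mature neurons, had 115, 153 and 144 normalized counts in WT against 453, 397 and 447 in NUAK2-CR. The lowest NUAK2-CR library was above the highest WT library, and the mean rose from 137 ± 20.1 to 432 ± 30.9 (SD, n = 3), with a log2 fold change of 1.66 (SE 0.15, adjusted p = 1.7e-06). GRIN2C, a subunit found in astrocytes and cerebellum, had 43.8, 35.7 and 14 in WT, compared with 7.62, 13.3 and 14.3 in NUAK2-CR. WT replicate 3 lay within the range of NUAK2-CR, and the fall (log2 fold change -1.42, SE 0.49, adjusted p = 0.0262) was lost without WT replicate 1 (-1.07, adjusted p = 0.122) or WT replicate 2 (-1.33, 0.0701), and also without NUAK2-CR replicate 1 (-1.18, 0.0988) or replicate 2 (-1.51, 0.0588). GRIN3A, a glycine-binding subunit that lowers calcium flow, had 33.2, 32.8 and 21.5 in WT against 21.6, 18.1 and 11 in NUAK2-CR and was not called (log2 fold change -0.81, 95% interval -1.68 to 0.06, adjusted p = 0.107).

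GRIN3B (chr19:1000419-1009732), the other glycine-binding subunit of this kind, was read from few counts, 15, 3 and 1 in WT, compared with 22, 26 and 22 in NUAK2-CR. As normalized counts these were 9.96, 2.89 and 1.07 against 27.9, 31.4 and 24.2, with no overlap. Its log2 fold change of 2.39 (SE 0.58, adjusted p = 0.0037) became 3.69 without WT replicate 1, 2.15 without WT replicate 2 and 2.01 without WT replicate 3. GRIN3B shares exon sequence with TMEM259 on the other strand, by the exons of GENCODE. The study's methods name default settings for the counting, under which featureCounts ignores strand. Strand therefore did not separate the reads of both genes in the shared stretch. How those reads were counted was not tested, so the counts of GRIN3B are uncertain to that extent. TMEM259 had 4958 ± 104 normalized counts in WT and 5565 ± 335 in NUAK2-CR (SD, n = 3), with a log2 fold change of 0.17 (adjusted p = 0.0544).

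The subunits that complete NMDA receptors were scarce. GRIN1, which every NMDA receptor needs, had 9, 1 and 0 counts in WT against 0, 6 and 4 in NUAK2-CR, too few to test. GRIN2B, a subunit of immature neurons, had 4, 10 and 8 counts in WT and none in NUAK2-CR. Against a floor of 3 counts over the NUAK2-CR group, for counting error of that group only, this was at least 5.34-fold lower. That value treats counts as independent and does not allow for the excess of even values among low counts given below. GRIN2B was below edgeR's filter, and it was called lower when the filter was dropped and by DESeq2. GRIN2D had 4 to 20 counts in a library, and its groups overlapped. Of NMDA counts per exon length, GRIN2A took a mean of 42.7% in WT and 62.8% in NUAK2-CR, GRIN3A 19.8% and 5.55%, GRIN2C 19.3% and 3.71%, and GRIN3B 7.11% and 22.9%. Without length the GRIN3B share was 2.07% in WT and 5.57% in NUAK2-CR, and that of GRIN2A 62.8% and 86.2%, so the size of these shares depends on length. Without WT replicate 1 the GRIN3B share in WT, per exon length, was 3.56%. The 2 groups did not overlap for any of these shares, each at the smallest exact permutation p of 0.1 (0.154 adjusted).

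**Figure D2:**
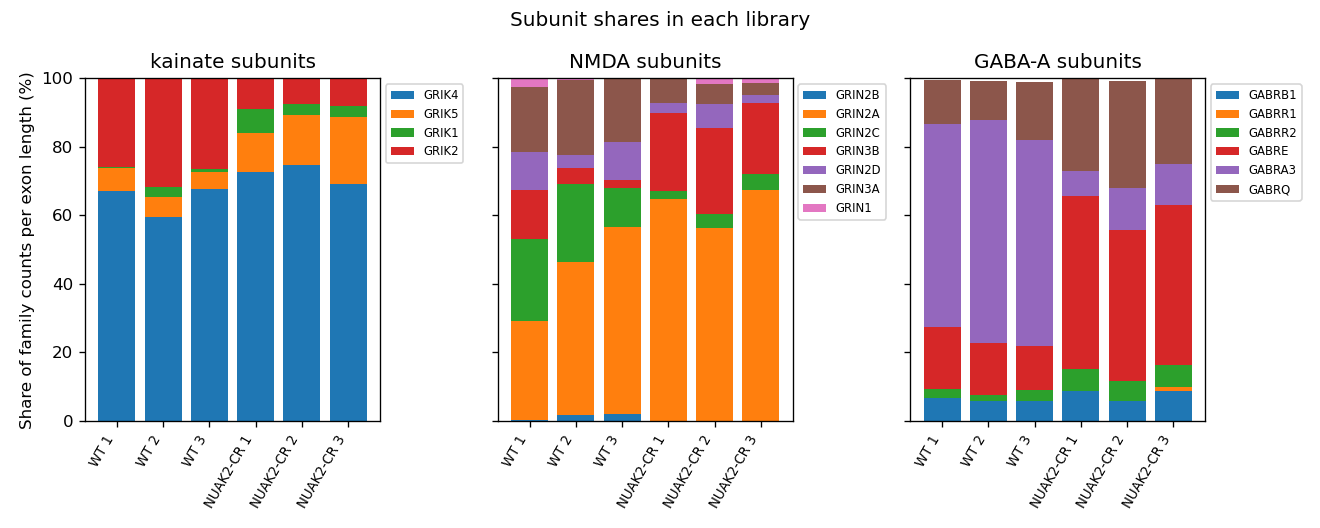
Share of each subunit (%) in the counts per exon length of the kainate, NMDA and GABA-A families in each of 3 WT and 3 NUAK2-CR libraries, 1 stacked bar per library. GABRA3 (purple, right panel) takes 59.3% to 65.1% in WT and 7.28% to 12% in NUAK2-CR, and GABRE (red) 13% to 18.1% and 44.1% to 50.4%.

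Of the metabotropic glutamate receptors, GRM5, which is coupled to Gq, had 2, 2 and 1 counts in WT against 8, 2 and 2 in NUAK2-CR and was not tested. Of the receptors coupled to Gi, GRM7 had 6, 19 and 12 counts in WT and 4 in each NUAK2-CR library, was not tested, and was called only without WT replicate 1. GRM2 had 6, 0 and 4 counts in WT, compared with 2, 0 and 0 in NUAK2-CR, GRM8 2, 6 and 0 against 0, 2 and 2, and GRM4 none in WT against 0, 2 and 2 in NUAK2-CR. GRM6 had 2 counts in 1 library and GRM3, an abundant receptor of astrocytes in brain, had none. GRID1, a delta receptor, had 0 to 3 counts in a library and was not tested.

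GABA-A receptors are chloride channels most often built of alpha, beta and further subunits, and 5 of their 19 genes were tested. GABRA3 (chrX:152166234-152451315), an alpha subunit, had 763, 847 and 670 normalized counts in WT, compared with 33, 45.8 and 42.8 in NUAK2-CR. The NUAK2-CR mean of 40.6 ± 6.7 was 5.34% of the WT mean of 760 ± 88.7 (SD, n = 3), with a log2 fold change of -4.22 (SE 0.16, adjusted p = 1.13e-09). Of the 17 tested receptor genes this was the fold change farthest from 0. GABRB1 (chr4:46993647-47426447), a beta subunit, had 61.8, 54 and 47.3 in WT against 27.9, 15.7 and 22 in NUAK2-CR. It fell 2.49-fold without overlap (log2 fold change -1.32, SE 0.33, adjusted p = 0.00432). GABRQ (chrX:152637895-152658965), the theta subunit, had 254, 233 and 296 in WT, compared with 192, 187 and 138 in NUAK2-CR, a smaller fall without overlap (log2 fold change -0.60, SE 0.17, adjusted p = 0.0104).

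GABRE and GABRR2 were not called. GABRE (chrX:151953124-151974676), the epsilon subunit, had 539, 456 and 334 normalized counts in WT against 530, 392 and 386 in NUAK2-CR, and its groups overlapped (log2 fold change -0.03, 95% interval -0.41 to 0.35, adjusted p = 0.891). Its sign turned in 3 of the 6 refits that left out a library, to 0.14 without WT replicate 1, 0.04 without NUAK2-CR replicate 2 and 0.05 without NUAK2-CR replicate 3. Its exons also hold the microRNA genes MIR224 and MIR452 on the same strand. GABRR2, a rho subunit that can form channels on its own, had 39.9, 27 and 39.8 in WT, compared with 35.6, 27.7 and 27.4 in NUAK2-CR (log2 fold change -0.24, 95% interval -0.96 to 0.48, adjusted p = 0.569). With GABRA3 low and GABRE little moved, the order within the family turned over. Of GABA-A counts per exon length, GABRA3 held 61.5% ± 3.12 in WT and 10.4% ± 2.71 in NUAK2-CR (SD, n = 3), and GABRE 15.4% ± 2.59 and 47.1% ± 3.14. GABRQ held 13.7% and 27.8%, although its own level fell, and none of the shares of these 3 genes overlapped (exact permutation p = 0.1, the smallest possible, 0.154 adjusted).

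The other 14 GABA-A genes were not tested. GABRG1, GABRG3, GABRA6, GABRB2 and GABRR3 had no count in any library. GABRD, the delta subunit of receptors outside synapses, had 6, 4 and 7 counts in WT, compared with 0, 2 and 0 in NUAK2-CR. GABRA2 had 13 counts in WT, 12 of them in WT replicate 1, and none in NUAK2-CR. GABRA5 had 0, 4 and 2 counts in WT and GABRP 2, 0 and 2, both with none in NUAK2-CR. GABRA4 had 1 count, in WT replicate 2, and GABRR1 had 4, in NUAK2-CR replicate 3.

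GABBR2 (chr9:98288109-98708935), the GABA-B subunit that couples to Gi, had 218, 244 and 264 normalized counts in WT against 90.2, 61.5 and 80.1 in NUAK2-CR. All NUAK2-CR libraries were below all WT libraries, and the mean fell from 242 ± 23.3 to 77.3 ± 14.5 (SD, n = 3), with a log2 fold change of -1.64 (SE 0.19, adjusted p = 1.43e-05). GABBR2 shares exon sequence with the pseudogene SEPTIN7P7 on the other strand, so its counts are uncertain to that extent. GABBR1, the subunit that binds GABA, had 2 counts in each WT library and 2, 0 and 0 in NUAK2-CR. That level could not be interpreted. GABBR1 lies in the MHC region of chromosome 6, where 36 of the 166 protein-coding genes in a 5 Mb window (21.7%) reached 10 counts in a library, beside 74% of all 19175 protein-coding genes and 77.4% in the next 5 Mb toward the centromere. RPS18, a ribosomal protein gene of this region, had 6 to 21 counts in a library. The cause was not tested, and no statement on the pairing of GABBR1 with GABBR2 was made.

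GLRB (chr4:157076150-157172090), the beta subunit that ties glycine receptors to the scaffold gephyrin, had 356, 532 and 489 normalized counts in WT, compared with 565, 564 and 676 in NUAK2-CR. The groups did not overlap, but the difference was small (log2 fold change 0.40, SE 0.15, adjusted p = 0.0359). The call was lost without WT replicate 1 (0.25, adjusted p = 0.081) or WT replicate 3 (0.45, 0.0507), and also without NUAK2-CR replicate 2 (0.44, 0.0551) or replicate 3 (0.30, 0.153). The alpha subunits, which carry the pore and most of the glycine site, were nearly unread. GLRA1 had 0, 1 and 0 counts in WT against 7, 0 and 1 in NUAK2-CR, GLRA2 10, 10 and 0 against 2, 6 and 4, and GLRA3 0, 0 and 8 against 4, 0 and 3. GLRB held 98.6% of glycine receptor counts per exon length in WT and 98.4% in NUAK2-CR.

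**Figure D3:**
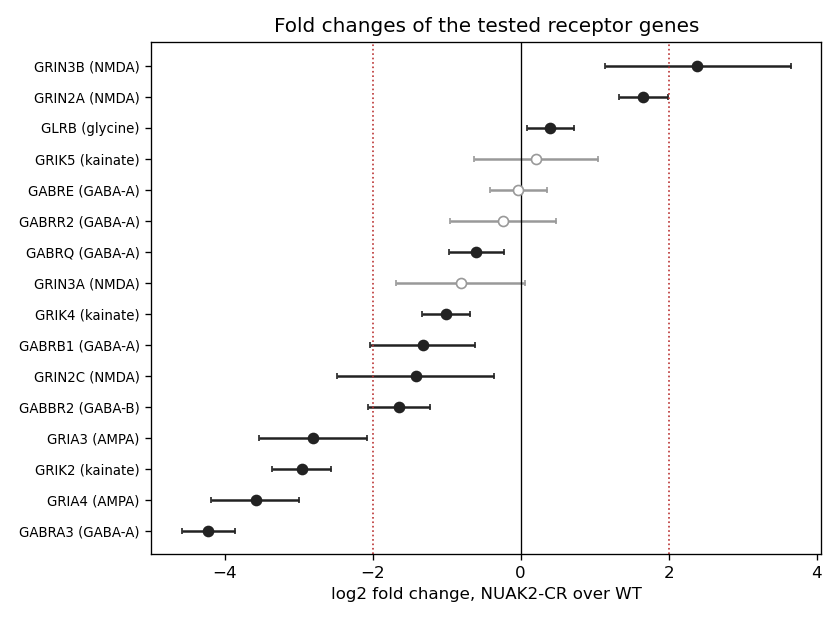
Log2 fold change of NUAK2-CR over WT for 16 of the tested receptor genes, with 95% intervals; filled points passed an adjusted p of 0.05 and dotted lines mark the DEG threshold of 2. From GABRA3 at -4.22 to GABRB1 at -1.32 every point is filled and below 0, and 3 filled points lie above 0.

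Of the 51 genes, 34 were not tested. Their highest count in any library was 20 and their highest sum over the 6 libraries was 53. Counts were seen for 26 of the 34, and 8 had none, which allows up to 3 counts in a library. Low counts also carried an excess of even values: 364 to 438 genes of a library had a count of 1 and 936 to 1021 a count of 2. The study's methods name default settings of featureCounts for these paired reads and do not spell out how the 2 mates of a pair were counted.

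The tested receptor genes differed in how the genes beside them on the chromosome had moved. For each tested receptor gene, the 20 nearest tested genes that are no receptor genes were taken by RefSeq position. Around GRIA4 their median log2 fold change was 0.04 and around GRIK2 it was -0.04, and none of the 20 was as low as the receptor gene. Of the 20, 4 were called lower and 8 higher around GRIA4, and 6 lower and 5 higher around GRIK2. Those lower around GRIK2 included POU3F2 (-2.67), a DEG, and POPDC1 (-1.78). Around GRIN2A the median was 0.17, and around GRIN3B it was -0.05, and no neighbour of GRIN3B was as high. GABBR2 (0.06) and GABRB1 (0.25) also fell among neighbours with a median above 0.

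GRIN2C and the X-linked genes had neighbours with lower medians. Around GRIN2C, on chromosome 17, the median was -0.53, 13 of 20 neighbours were called lower, and less that median GRIN2C stood at -0.89 in place of -1.42. Around GABRA3 the median was -0.83, 15 of 20 neighbours were called lower and 8 were DEGs, all lower. Those 8 were MAGEA1, MAGEA2, MAGEA2B, MAGEA6, CSAG2, CSAG3, PNMA5 and PASD1, named after their values were seen, and most belong to families of cancer/testis antigens. MAGEA6 went from 7118, 4576 and 4433 counts to 284, 248 and 344 (-3.74). MAGEA3, a neighbour of the same family, fell by less, from 8181, 5295 and 4946 to 2513, 2915 and 3224 (-0.63). MAGEA2, MAGEA2B, CSAG2 and CSAG3 are near-identical copies between which reads can be split. Whether reads were also split between MAGEA6 and MAGEA3 was not tested. PASD1 and PNMA5 had no count in NUAK2-CR. The same stretch holds GABRE, which was not called, and GABRQ, which fell 1.51-fold, at both sides of GABRA3. Less the median of its neighbours, GABRA3 stood at -3.39, GABRQ at 0.23 and GABRE at 0.79, so the signs of the latter pair rest on this choice of reference. Around GRIA3 the median was -0.41, with 13 of 20 called lower, and TENM1, TMEM255A and DCAF12L2 were DEGs below GRIA3. Around NUAK2 itself the median was -0.82, with 10 neighbours lower than NUAK2 and 10 higher. Less that median NUAK2 stood at -0.11. Copy number was not measured, and the part of the position in these values was not tested.

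**Figure D4:**
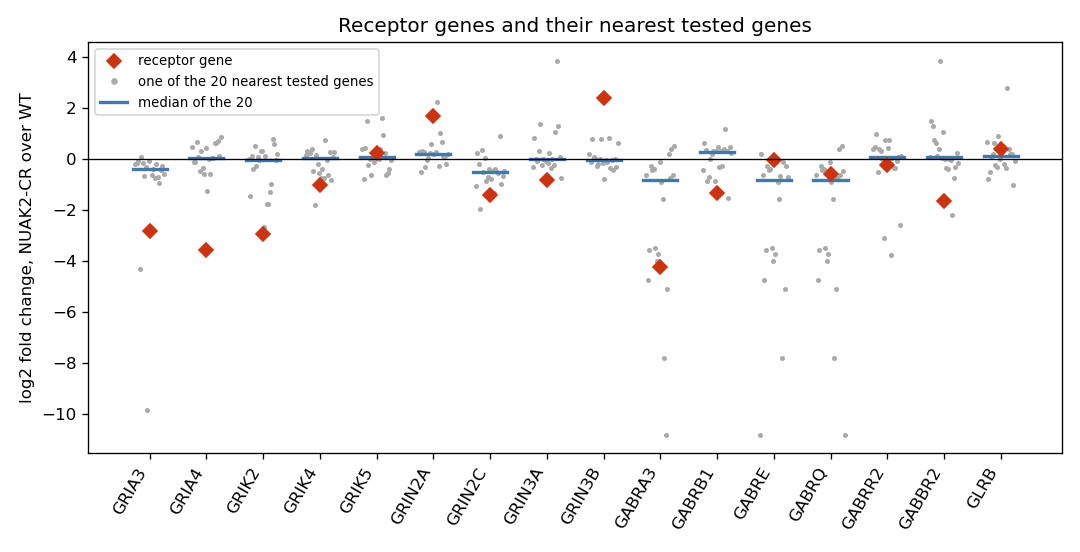
Log2 fold change of NUAK2-CR over WT for 16 of the tested receptor genes (red diamonds) and the 20 tested genes nearest to each (grey points, with a blue bar at their median). GRIA4 and GRIK2 lie below every neighbour, whereas GABRA3 lies among low neighbours with a median of -0.83. The lowest grey points are PASD1, PNMA5 and DCAF12L2, which had no count in NUAK2-CR, so their position depends on the prior count.

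In the GABA-A cluster on 4p12, GABRB1 was tested, and GABRG1, GABRA2 and GABRA4 had at most 12 counts in a library. GLRB and GRIA2 are neighbours on 4q32, where GLRB had 445 to 616 counts in a library and GRIA2 0 to 10.

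The genes that act with the receptors were counted by list, to be read beside the 26.3% of all tested genes called higher and the 28.2% called lower. Of 7 tested auxiliary subunits of AMPA and kainate receptors, 4 were higher and 2 lower, with a median log2 fold change of 0.31. SYNDIG1, which binds AMPA receptors at synapses, fell from 266 ± 52.3 to 33.5 ± 5.35 normalized counts (log2 fold change -2.98). SHISA9, another AMPA partner, rose from 179 ± 23.9 to 858 ± 41.5 (2.26), and CNIH3 (1.64) and CNIH2 (1.00), which help AMPA receptors leave the endoplasmic reticulum, rose too. CACNG8 fell (-1.24) and CACNG4 was not called (-0.13, adjusted p = 0.155). CPT1C, the remaining tested gene of the list, rose by less (0.31, adjusted p = 0.00659).

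Of 21 tested excitatory scaffold genes, 8 were higher and 6 lower, with a median of 0.18. DLGAP1, which links the PSD-95 family to SHANK proteins, was the DEG of this list, with 498, 459 and 402 normalized counts in WT, compared with 50.8, 32.6 and 50.5 in NUAK2-CR (log2 fold change -3.34, adjusted p = 2.91e-08). Of 16 tested inhibitory scaffold and GABA-A trafficking genes, 4 were higher, 4 were lower, none was a DEG and the median was -0.03. That is 50% called, near the 54.5% of all tested genes. RDX, which anchors some GABA-A receptors to actin, fell (-1.29), while SLC12A2, a chloride importer, rose (1.33). Gephyrin itself (GPHN) was not called (-0.02, adjusted p = 0.852).

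Of 23 tested G protein effectors of the metabotropic receptors, 12 were higher and 6 lower, with a median of 0.27. KCNJ3, a potassium channel opened by GABA-B receptors, rose from 3.32, 1.93 and 1.07 normalized counts in WT to 58.4, 39.8 and 62.6 (log2 fold change 4.49, adjusted p = 8.51e-06), and ADCY1, an adenylyl cyclase, fell (-3.30). The channel partners of KCNJ3, KCNJ5, KCNJ6 and KCNJ9 were below the filter. On the Gq side, the phospholipases PLCB4 (1.46) and PLCB1 (1.08) rose. Of 21 tested genes of transmitter synthesis and breakdown, 7 were higher and 7 lower (66.7% called, beside 54.5% of all tested genes), none was a DEG and the median was 0.06. GLDC, of the glycine cleavage system, rose (1.07), GLUL, the glutamine synthetase of astrocytes, fell (-0.88), and GAD1, which makes GABA, was not called (0.19, adjusted p = 0.279).

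**Figure D5:**
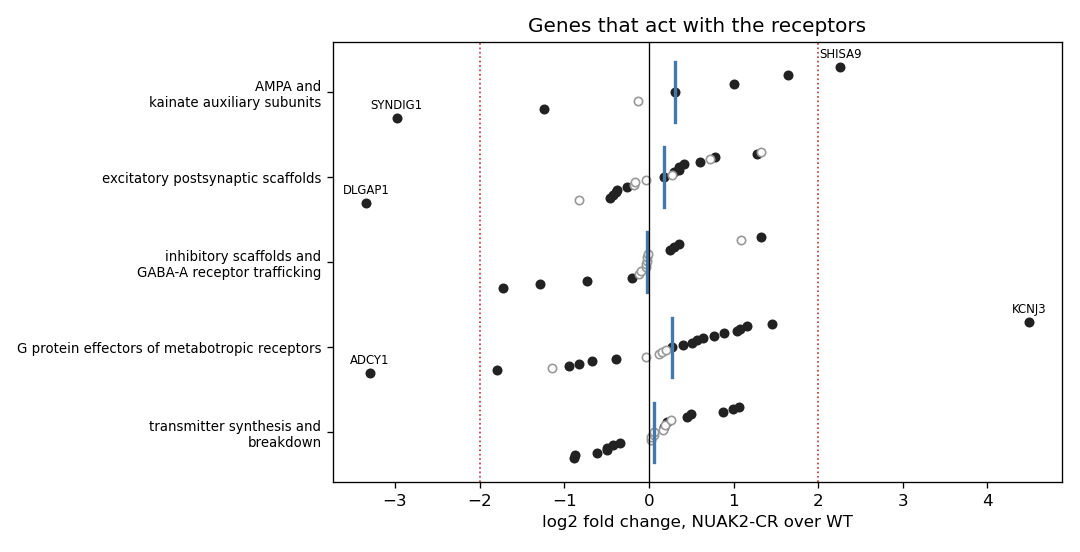
Log2 fold change of NUAK2-CR over WT for the tested genes of 5 lists that act with the receptors; filled points passed an adjusted p of 0.05, blue bars are list medians, dotted lines mark the DEG threshold of 2 and DEGs are named. The medians lie between -0.03 and 0.31.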

How the data were processed

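RNA was measured by bulk RNA-sequencing in 3 WT and 3 NUAK2-CR libraries of U251 cells, grouped by the sample labels. The authors deposited raw read counts per gene, by NCBI gene ID. The submitters' processing notes name bcl2fastq, Trimmomatic, HISAT2, featureCounts and hg38. The study's methods state default parameters for Trimmomatic, HISAT2 and featureCounts, run in Galaxy; by default featureCounts ignores strand, although the kit is stranded. Versions of these tools, the annotation and the counting of mates are not spelled out in the sources used here. IDs were matched to RefSeq symbols (27745 matched, 650 not), and exon lengths came from GENCODE by symbol (all 51 receptor genes). The main test was edgeR 4.0.16 in R 4.3.3 (filterByExpr, TMM, quasi-likelihood F test, Benjamini-Hochberg over 14873 genes, prior count 0.125); the common biological coefficient of variation was 0.101. SE is the fold change over the root of F, and 95% intervals use the moderated degrees of freedom. Data were simulated from these counts (NUAK2-CR against WT, 14677 genes). Recovered were 47 of 66 genes changed 2-fold, 65 of 66 changed 4-fold and 65 of 66 changed 8-fold. False calls were 14 among 14479. Far fewer genes were changed there than the 54.5% of tested genes called in the real data, so these figures do not carry over to it. Shares within a family were given where every library had at least 100 counts of it, so none is given for AMPA, delta, metabotropic glutamate and GABA-B receptors.

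Alternatives were DESeq2 1.42.0, RLE and library-size scaling, no filter on low counts, a filter of 10 counts in each library, a prior count of 2, each library left out, a replicate block, a log2 threshold of 1, the median of the 20 nearest tested genes as reference, and shares without length. Named were the receptor genes, except some that are not reported here, NUAK2, and the DEGs of each related list, at most 6; other genes of these lists, and neighbours, were named after their values were seen. The receptor genes, lists and tests were chosen with earlier results of these data known. Figures were drawn with Python 3.11.15 and matplotlib 3.10.9.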

Additional observations from a re-analysis of the deposited data

How the results depend on the processing

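Over the alternatives, 10 to 14 receptor genes were called (13 in the main test), and GRIA3, GRIK2 and GABRA3 were DEGs in all 14 refits. With at least 10 counts in every library, GRIA4 and GRIN3B were not tested, which left 3 receptor DEGs, of which 0 were higher. A log2 threshold of 1 gave 11. Shares of all tested genes were taken in the main test only, with the threshold of 2 for DEGs. Counts from the other settings therefore stand without a background and cannot be judged against all genes. With 1 library left out the higher DEGs ran from 1 to 2. The replicate block gave 13 calls and 2 higher DEGs and changed no other receptor call. The deviations of same-numbered libraries from their group means correlated at 0.043, -0.035 and 0.048. Deviations from a mean of 3 constrain one another, so these values cannot decide whether the numbers pair the libraries. The labels do not say. Signs turned for GRIK5 without NUAK2-CR replicate 3 (-0.06) (0.43 at the highest, without NUAK2-CR replicate 1), and for GABRE in 3 refits with a library left out, which ran from -0.20 to 0.14. Less the neighbours' median, GABRE was at 0.79 and GABRQ at 0.23. GRIN2B was called with no filter and by DESeq2. Halving the counts, chosen after seeing the excess of even values, gave 12 calls, with GRIN2C below the filter. The other causes were not tested. Depth limits what can be said of the 34 untested genes, and the calls of GRIN2C and GLRB were each lost in 4 of the 6 refits with a library left out.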
